A study of Mus musculus with 12 samples.

Results

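Chromatin regulators and histone genes encode the proteins that package DNA, mark it, read the marks and move nucleosomes. The 95 genes described here were taken from the 4859 coding genes of the deposited table by their symbols, which begin with the names of families of histones, high mobility group proteins, histone and DNA modifying enzymes, remodelling subunits and reader proteins. That table lists only genes that the authors reported to differ between sorted cell populations, so a chromatin gene absent from it was not analysed, and counts between populations are not independent of that selection. Of the 95 members, 89 had a mean of at least 1 FPKM (fragments per kilobase of transcript, scaled to the number mapped) over the 12 libraries, and 6, each of them a Hist1 gene, were listed at 0 in at least 1 library.

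Mouse embryos carried the Tg(Ebf2-EGFP)FB58Gsat transgene, in which regulatory sequence of *Ebf2* drives EGFP. Cells of the cerebral cortex were dissociated at embryonic days E11.5, E13.5 and E15.5 and sorted into Ebf2-EGFP+ and Ebf2-EGFP- cells, with 2 biological replicates for each of the 6 groups. The study used the line to follow preplate and Cajal-Retzius neurons, and the Ebf2-EGFP- cells are all remaining cortical cells, not 1 cell type. The labels do not say whether libraries with the same replicate number came from the same embryos. RNA with poly(A) tails was captured with oligo(dT) beads before sequencing. Ebf2-EGFP+ cells were compared with Ebf2-EGFP- cells at each stage, E15.5 was compared with E11.5 within each population, and the change of the population difference from E11.5 to E15.5 was tested directly. Differences are given as log2 values of FPKM + 1, positive where Ebf2-EGFP+ cells or E15.5 were higher, and a gene was called at a limma adjusted p under 0.05 over all 4859 genes.

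DNA in the nucleus is wound around histones, and enzymes that methylate, demethylate or deacetylate histones, or methylate DNA, set how readily a gene can be read. Remodelling complexes such as BAF use ATP to slide or evict nucleosomes, and as neural progenitors leave the cell cycle they exchange some BAF subunits for neuronal paralogues. Polycomb proteins keep developmental genes silent, and in the cortex their activity in progenitors is known to influence the timing of neurogenesis.

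The sorted populations were compared with markers of the cells they could hold. All 8 neuron markers were listed, *Tubb3* being the most abundant, and their summed level in Ebf2-EGFP+ cells was 3636 and 3141 FPKM at E11.5, 2817 and 2595 at E13.5, then 3447 and 3791 by E15.5, against 662 and 715 FPKM at E11.5, 1178 and 1314 at E13.5, then 2063 and 2627 by E15.5 in Ebf2-EGFP- cells. The 8 Cajal-Retzius markers, led by *Reln*, summed to 425 and 377 FPKM at E11.5, 205 and 256 at E13.5, then 564 and 1150.3 by E15.5 in Ebf2-EGFP+ cells and to 13.3 and 12.02 FPKM at E11.5, 12.8 and 13.4 at E13.5, then 23.99 and 16.5 by E15.5 in Ebf2-EGFP- cells. For both sums the Ebf2-EGFP+ pair was above the Ebf2-EGFP- pair of its stage, and each of the 8 Cajal-Retzius markers was called higher at all 3 stages. *Reln* itself went from 75.9 and 76.3 FPKM at E11.5 to 399 and 925 by E15.5 in Ebf2-EGFP+ cells. Over these stages 2 Cajal-Retzius markers were called higher there and 4 lower, beside 33.3 % and 42.1 % of all genes. The cortical plate list, with 8 of 8 genes and *Neurod6* as the most abundant, summed to 209 and 266 FPKM at E11.5, 975 and 980.0 at E13.5, then 1092 and 751 by E15.5 in Ebf2-EGFP+ cells and 66.7 and 71.3 FPKM at E11.5, 489.9 and 610.0 at E13.5, then 952 and 798 by E15.5 in Ebf2-EGFP- cells. Cortical plate levels were low at E11.5 and overlapped between the populations at E15.5.

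Markers of dividing cells had the opposite arrangement. All 10 proliferation markers, with *Pcna* the most abundant, were called lower in Ebf2-EGFP+ cells at each of the 3 stages and lower at E15.5 than at E11.5 in each population. Their summed level was 324 and 293 FPKM at E11.5, 169.8 and 113 at E13.5, then 59.6 and 62.3 by E15.5 in Ebf2-EGFP+ cells and 1248 and 1092 FPKM at E11.5, 908 and 564 at E13.5, then 267 and 165 by E15.5 in Ebf2-EGFP- cells. The 8 radial glia markers, led by *Vim*, summed to 430.2 and 406 FPKM at E11.5, 222 and 201 at E13.5, then 152 and 89.01 by E15.5 in Ebf2-EGFP+ cells and 1624 and 1341 FPKM at E11.5, 1575 and 1053 at E13.5, then 817 and 456 by E15.5 in Ebf2-EGFP- cells, and all 8 were called lower in the Ebf2-EGFP+ population at each stage. The sorted pairs did not overlap at any stage for either list, although neither list reached 0 in Ebf2-EGFP+ cells. Intermediate progenitor markers (5 of 5, led by *Eomes*) summed to 249.5 and 231 FPKM at E11.5, 132 and 95.7 at E13.5, then 38.5 and 22.2 by E15.5 in Ebf2-EGFP+ cells and 68.3 and 73.9 FPKM at E11.5, 380.4 and 284 at E13.5, then 254 and 145 by E15.5 in Ebf2-EGFP- cells, so that the order of the populations at E11.5 was the opposite of that at E13.5 and E15.5. These marker levels moved with many of the chromatin genes, and their part in those results was not tested. In bulk RNA, fewer cells of a type and less RNA per cell cannot be told apart.

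Markers of cells from outside the dorsal cortex or outside the nervous lineage were uneven between libraries. The 8 ganglionic eminence or interneuron markers (8 listed, led by *Dlx2*) summed to 13.4 and 16.4 FPKM at E11.5, 5.11 and 3.38 at E13.5, then 4.09 and 4.47 by E15.5 in Ebf2-EGFP+ cells and 181 and 234 FPKM at E11.5, 65.4 and 64.4 at E13.5, then 94.1 and 80.04 by E15.5 in Ebf2-EGFP- cells, with 1 marker at 0 in replicate 1 of the E13.5 and in both replicates of the E15.5 Ebf2-EGFP+ cells. For erythroid cells, 4 of 6 markers were listed, led by *Hbb-y*, with sums of 65.2 and 20.4 FPKM at E11.5, 3.997 and 6.05 at E13.5, then 7.71 and 28.3 by E15.5 in Ebf2-EGFP+ cells and 842 and 1787 FPKM at E11.5, 131 and 102 at E13.5, then 202 and 1219.6 by E15.5 in Ebf2-EGFP- cells. In replicate 2 of the E11.5 Ebf2-EGFP- cells the erythroid sum was above the neuron, proliferation and radial glia sums. Erythroid RNA was highest in the Ebf2-EGFP- cells at E11.5 and in replicate 2 of those at E15.5, while 2 of the markers were at 0 in both E15.5 Ebf2-EGFP+ libraries and 1 in replicate 1 of the E15.5 Ebf2-EGFP- cells. Meninges or fibroblast markers (6 of 6, led by *Col3a1*) summed to 41.9 and 47.2 FPKM at E11.5, 1.69 and 1.06 at E13.5, then 0.893 and 2.77 by E15.5 in Ebf2-EGFP+ cells and 129 and 110.0 FPKM at E11.5, 5.57 and 3.77 at E13.5, then 3.63 and 2.75 by E15.5 in Ebf2-EGFP- cells. Endothelial markers (3 of 6, led by *Cldn5*) gave 0.322 and 0.536 FPKM at E11.5, 2.32 and 0.692 at E13.5, then 0.483 and 0.601 by E15.5 in Ebf2-EGFP+ cells and 7.19 and 4.39 FPKM at E11.5, 1.77 and 2.94 at E13.5, then 2.14 and 2.64 by E15.5 in Ebf2-EGFP- cells, with 1 at 0 in replicate 1 of the E11.5 Ebf2-EGFP+ cells. Of 6 microglia or macrophage markers, only *Aif1* was listed, at 0.272 and 0.359 FPKM at E11.5, 0.933 and 0.673 at E13.5, then 2.92 and 2.87 by E15.5 in Ebf2-EGFP+ cells and 0.131 and 0.162 FPKM at E11.5, 0.111 and 0.188 at E13.5, then 0.626 and 0.773 by E15.5 in Ebf2-EGFP- cells. The part of these cells in the levels of chromatin genes was not tested.

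Of the summed FPKM of the 4859 listed genes, the 95 members held 3.94 and 3.85 % in Ebf2-EGFP+ libraries at E11.5. In these libraries they held 3.05 and 2.79 % at E13.5, and 2.197 and 1.96 % by E15.5. In Ebf2-EGFP- cells the same share was 6.01 and 5.71 % at E11.5, 5.22 and 4.31 % at E13.5, and 3.53 and 3.001 % by E15.5. No pair of Ebf2-EGFP+ libraries overlapped with the Ebf2-EGFP- pair of its stage, and the histones and high mobility group proteins held much of the gap. Without them the other 62 members held 1.76 and 1.89 % at E11.5, 1.33 and 1.42 % at E13.5, and 1.24 and 1.13 % by E15.5 in Ebf2-EGFP+ cells, and 1.74 and 1.75 % at E11.5, 1.47 and 1.51 % at E13.5, and 1.33 and 1.3004 % by E15.5 in Ebf2-EGFP- cells.

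At E11.5, 24 of the 95 members were called higher in Ebf2-EGFP+ cells, beside 36.8 % of all 4859 genes, and 42 were called lower, beside 44.9 % of all genes. At E13.5 the members split into 13 higher, with 32.1 % of all genes called higher, and 55 lower, with 43.5 % of all genes called lower. The E15.5 counts were 7 higher (25.8 % of all genes) and 45 lower (31.6 % of all genes). The median difference of the members stood at -0.43 at E11.5, -0.65 at E13.5, and -0.47 by E15.5, beside -0.19, -0.19 and -0.11 over all genes. As shares of the 95 members, 25.3 %, 13.7 % and 7.37 % were higher at the successive stages, each below the share of all genes. The lower members were 44.2 % at E11.5, close to all genes, 57.9 % at E13.5, and 47.4 % by E15.5. The number lower at E15.5 was 28 without replicate 1 of the E15.5 Ebf2-EGFP- cells (22.5 % of all genes), and the number higher at E13.5 was 8 without replicate 1 of the E13.5 Ebf2-EGFP+ cells (26.5 % of all genes).

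**Figure D1:**
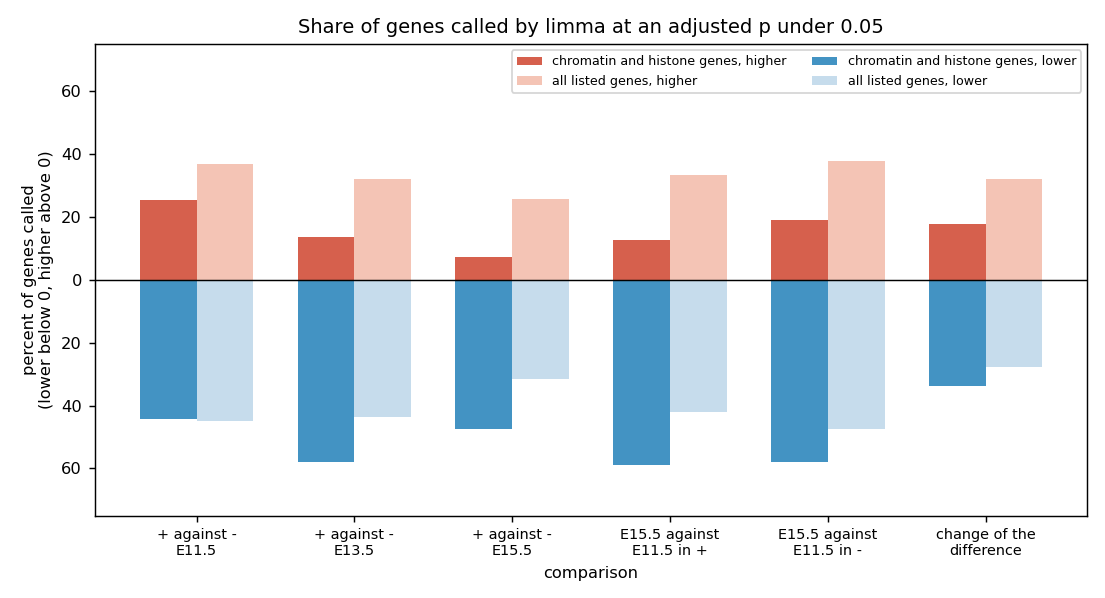
Percent of genes called in each of the 6 comparisons, with bars above 0 for genes called higher and below 0 for genes called lower, for the 95 chromatin and histone genes and for all 4859 listed genes. In Ebf2-EGFP+ cells at E15.5, 7.37 % of the chromatin genes and 25.8 % of all genes were called higher.

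Between E11.5 and E15.5 more members fell than rose in each population. In Ebf2-EGFP+ cells 12 members rose (33.3 % of all genes rose) and 56 fell (42.1 % of all genes fell). In Ebf2-EGFP- cells 18 rose (37.7 % of all genes) and 55 fell (47.6 % of all genes). A set of 43 members fell in both populations, beside 32.7 % of all genes. The difference between the populations itself moved up for 17 members (32.0 % of all genes) and down for 32 (27.7 % of all genes). The number that moved up was 8 with a pseudocount of 0.1 (24.4 % of all genes), 11 without replicate 2 of the E11.5 Ebf2-EGFP+ cells (27.9 %) and 9 without replicate 2 of the E15.5 Ebf2-EGFP- cells (27.4 %). In Ebf2-EGFP+ cells 5 members (5.26 %) were called higher at all 3 stages, beside 14.6 % of all genes. They were *Actl6b*, *Dpf3*, *Hdac11*, *Prmt8* and *Prmt2*, the last of which was named after its values were seen. Another 24 (25.3 %) were called lower at all 3 stages, beside 21.8 % of all genes. This number was 14 without replicate 1 of the E11.5 Ebf2-EGFP- cells (14.7 %, beside 19.9 % of all genes), 15 without replicate 1 of the E15.5 Ebf2-EGFP- cells (15.8 %, beside 15.003 %) and 38 with the replicate number as a block (40 %, beside 27.6 %).

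Scaling between libraries moved these splits. Median-of-ratios scaling shifted the median of all genes by 0.19 at E11.5, 0.19 at E13.5, and 0.13 by E15.5 in the population comparisons. The median over all genes moved by 0.14 for the stage comparison in Ebf2-EGFP+ cells, by 0.22 for that in Ebf2-EGFP- cells and by -0.06 for the change of the difference. After scaling, members at E11.5 were 33 higher and 38 lower, which put 46.5 % of the called members on the higher side in place of 36.4 %, beside 49.8 % of the called genes overall after scaling. At E13.5 they were 22 higher and 43 lower, or 33.8 % on the higher side in place of 19.1 %, beside 52.03 % overall. By E15.5 they were 9 higher and 36 lower, or 20 % in place of 13.46 %, beside 54.7 % overall. Over all genes after scaling, 40.5 %, 39.1 % and 32.9 % were higher and 40.8 %, 36.1 % and 27.2 % lower at the successive stages, which can be set beside the family counts below. With stage, 15 members rose and 51 fell in Ebf2-EGFP+ cells after scaling (38.7 % and 37.8 % of all genes). In Ebf2-EGFP- cells 21 rose and 47 fell (41.0 % and 42.7 % of all genes), while the difference moved up for 16 and down for 37 (31.5 % and 29.0 % of all genes). The median of the members after scaling, -0.17 at E11.5, -0.39 at E13.5, and -0.35 by E15.5, was below the scaled median of all genes at each stage.

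**Figure D2:**
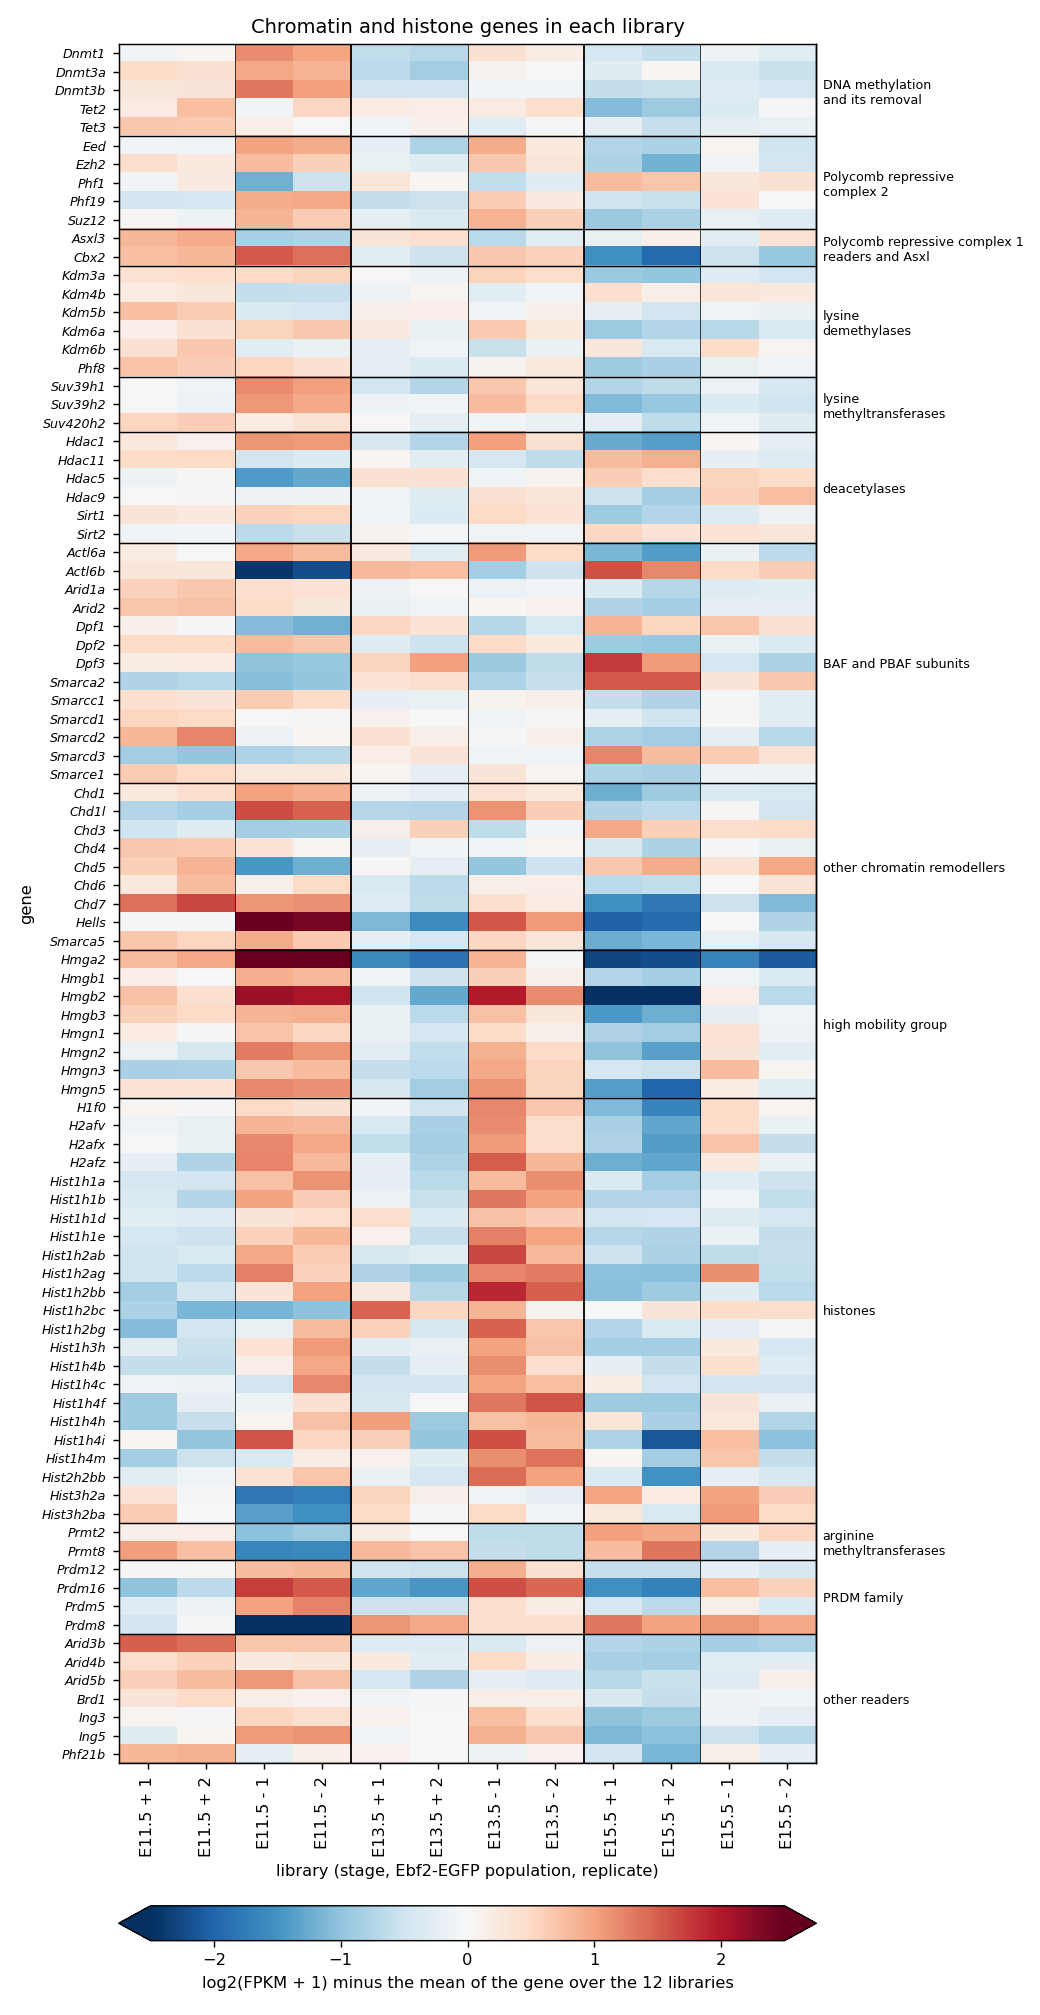
Level of 93 of the 95 chromatin and histone genes in the 12 libraries, as log2 of FPKM + 1 relative to that gene's mean, grouped by role. Most histone and high mobility group rows are above their mean in Ebf2-EGFP- libraries at E11.5 and E13.5, while *Actl6b*, *Dpf3* and *Prmt8* are above it in Ebf2-EGFP+ libraries.

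Polycomb repressive complex 2 methylates histone H3 at silent developmental genes, and 5 of its members were listed. *Ezh2* is its catalytic subunit, *Suz12* and *Eed* are the core partners that *Ezh2* needs, and *Phf1* and *Phf19* are Polycomb-like accessory proteins that help bring the complex to chromatin. At E11.5, 1 of the 5 was called higher in Ebf2-EGFP+ cells and 3 lower, beside 36.8 % and 44.9 % of all genes. At E13.5 1 was higher and 4 lower, beside 32.1 % and 43.5 %, and by E15.5 0 and 3, beside 25.8 % and 31.6 % (1 and 3 after scaling). *Suz12* stood at 28.1 and 24.9 FPKM at E11.5, 22.9 and 21.2 at E13.5, then 13.9 and 15.3 by E15.5 in Ebf2-EGFP+ cells. Among Ebf2-EGFP- cells it stood at 50.4 and 43.04 FPKM at E11.5, 50.6 and 42.1 at E13.5, then 23.8 and 21.7 by E15.5. Both Ebf2-EGFP+ libraries were below the Ebf2-EGFP- pair throughout, and the difference was -0.79 at E11.5 (SE 0.15, limma adjusted p = 0.000404), -1.03 at E13.5, and -0.61 by E15.5. *Ezh2* levels were 91.2 and 78.9 FPKM at E11.5, 58.8 and 53.8 at E13.5, then 38.1 and 28.8 by E15.5 in Ebf2-EGFP+ cells, and 114 and 102 FPKM at E11.5, 108 and 82.1 at E13.5, then 63.4 and 47.4 by E15.5 in Ebf2-EGFP- cells. The groups did not overlap at any stage, although the test called *Ezh2* lower only at E13.5 (-0.73) and E15.5 (-0.71). *Ezh2* was no longer called at E13.5 without replicate 1 of the E13.5 Ebf2-EGFP- cells (-0.54) and at E15.5 without replicate 2 of the E15.5 Ebf2-EGFP+ cells (-0.52) or replicate 1 of the E15.5 Ebf2-EGFP- cells (-0.51). *Ezh2* fell between E11.5 and E15.5 in both populations, with log2 changes of -1.33 in Ebf2-EGFP+ cells (limma adjusted p = 7.28e-05) and -0.96 in Ebf2-EGFP- cells.

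The third core subunit, *Eed*, was also the least abundant of the core. It measured 12.9 and 12.6 FPKM at E11.5, 11.6 and 7.66 at E13.5, then 7.85 and 7.53 by E15.5 in Ebf2-EGFP+ cells and 28.6 and 26.99 FPKM at E11.5, 26.9 and 16.3 at E13.5, then 14.5 and 9.37 by E15.5 in Ebf2-EGFP- cells. The Ebf2-EGFP+ libraries were the lower ones at each stage, with a log2 difference of -1.06 at E11.5 (limma adjusted p = 0.00206) and -1.07 at E13.5. The accessory proteins diverged. *Phf19* was close to 0 in Ebf2-EGFP+ cells, at 0.155 and 0.168 FPKM at E11.5, 0.0551 and 0.0998 at E13.5, then 0.119 and 0.08599 by E15.5, and reached only 2.004 and 2.08 FPKM at E11.5, 1.47 and 0.845 at E13.5, then 1.02 and 0.573 by E15.5 in Ebf2-EGFP- cells. *Phf19* was called lower at all 3 stages, with -1.39 at E11.5 (SE 0.15). *Phf1* went the other way, with 6.095 and 7.63 FPKM at E11.5, 8.16 and 6.67 at E13.5, then 11.9 and 10.96 by E15.5 in Ebf2-EGFP+ cells and 2.21 and 4.08 FPKM at E11.5, 3.83 and 5.04 at E13.5, then 8.07 and 8.71 by E15.5 in Ebf2-EGFP- cells. Both Ebf2-EGFP+ libraries were the higher ones at each stage, and *Phf1* was called higher at E11.5 (0.95, limma adjusted p = 0.00195) and E13.5 (0.63) and rose with stage in Ebf2-EGFP- (1.22) and Ebf2-EGFP+ cells (0.66). *Phf1* was no longer called at E13.5 without replicate 1 of the E13.5 Ebf2-EGFP+ cells (0.51) or replicate 1 of the E13.5 Ebf2-EGFP- cells (0.47) and for the change in Ebf2-EGFP+ cells without replicate 1 of the E11.5 Ebf2-EGFP+ cells (0.52) or replicate 1 of the E15.5 Ebf2-EGFP+ cells (0.61). Without replicate 1 of the E11.5 Ebf2-EGFP- cells the E11.5 difference of *Phf1* was 0.62.

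Promoters were searched because the proliferation markers were lower in Ebf2-EGFP+ cells at all 3 stages, as were 24 members (25.3 %, beside 21.8 % of all genes). The strings TTTCCCGC and TTTGGCGC, which resemble recognition sites of the E2F family of cell cycle factors, were searched on both strands from 250 bases before to 50 bases after each RefSeq start site, in build GRCm38.p6. Of the members, 80 matched a promoter and 9 of these (11.2 %) held a string, beside 486 of 27025 genes (1.80 %) of the whole promoter table and 159 of 3768 listed genes (4.22 %). By window, 1.07 % held TTTCCCGC and 0.514 % held TTTGGCGC. Among members lower at all 3 stages, 4 of 18 held a string, and among the other members 5 of 62. Over all listed genes, 67 of 829 that were lower at all 3 stages held a string (8.08 %), against 3.13 % of the rest. *Suz12* and *Phf19*, of the same complex, and the remodeller *Hells* are shown because each was lower at all 3 stages and holds TTTCCCGC before its start site. The sequences, from RefSeq, are the 250 bases before the start site read 5′ to 3′ along the gene's strand, and capitals mark the string or its reverse complement. *Suz12* lies on the + strand at chr11:79992856-79993105, with the first capital 219 bases before the start site. *Phf19* lies on the - strand at chr2:34913977-34914226, and *Hells* on the + strand at chr19:38930740-38930989. Other coordinates of the *Hells* gene begin at 38930915, so its string lies before the RefSeq start site used here but inside those coordinates. TTTCCCGC, read on either strand, also lies before the start sites of *Arid1a*, *Smarcd1* and *Suv420h2*, which were not lower at all 3 stages. In *Ezh2* and *Dnmt1* a TTTGGCGC begins after the start site. These matches describe letters in a window, and binding was not measured.
Suz12: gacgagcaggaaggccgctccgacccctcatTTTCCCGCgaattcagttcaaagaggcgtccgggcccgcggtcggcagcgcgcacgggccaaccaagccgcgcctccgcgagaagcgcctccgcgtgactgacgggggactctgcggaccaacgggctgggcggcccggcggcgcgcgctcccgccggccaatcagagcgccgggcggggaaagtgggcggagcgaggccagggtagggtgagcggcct
Phf19: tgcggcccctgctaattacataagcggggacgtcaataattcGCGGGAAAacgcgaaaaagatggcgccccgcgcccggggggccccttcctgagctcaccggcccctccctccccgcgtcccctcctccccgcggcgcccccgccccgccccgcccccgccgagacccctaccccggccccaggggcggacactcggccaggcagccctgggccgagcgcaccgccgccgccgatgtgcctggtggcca
Hells: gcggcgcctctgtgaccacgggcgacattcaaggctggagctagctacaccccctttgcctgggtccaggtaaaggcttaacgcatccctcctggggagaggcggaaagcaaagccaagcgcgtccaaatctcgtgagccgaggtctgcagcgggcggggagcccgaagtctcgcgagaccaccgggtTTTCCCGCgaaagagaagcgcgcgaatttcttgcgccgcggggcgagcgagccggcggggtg

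*Kdm6a*, an X-linked demethylase that removes the methyl mark placed by Polycomb repressive complex 2, lies on chromosome X from 18162575 to 18279936 in mm10. Its level in Ebf2-EGFP+ cells was 9.48 and 11.1 FPKM at E11.5, 9.84 and 7.18 at E13.5, then 3.92 and 4.62 by E15.5. Among Ebf2-EGFP- cells it was 12.7 and 13.9 FPKM at E11.5, 13.6 and 10.1 at E13.5, then 4.73 and 6.14 by E15.5. Both Ebf2-EGFP+ libraries were below both Ebf2-EGFP- libraries at each stage, but the differences of -0.34 at E11.5 (SE 0.20, limma adjusted p = 0.137), -0.43 at E13.5 (limma adjusted p = 0.0716) and -0.28 at E15.5 (limma adjusted p = 0.249) were not called. With the replicate number as a block, the limma adjusted p was 0.0236 at E11.5 and 0.00789 at E13.5, and the gene was then called lower at those stages. At E13.5 it was also called without replicate 1 of the Ebf2-EGFP+ cells (-0.63) or replicate 2 of the Ebf2-EGFP- cells (-0.63), whereas without replicate 2 of the Ebf2-EGFP+ cells or replicate 1 of the Ebf2-EGFP- cells the difference was -0.23 or -0.23 and was not called. Scaling brought the difference to -0.10 at E11.5 and -0.15 at E13.5, again without a call. The called change was over time. *Kdm6a* fell between E11.5 and E15.5, with a log2 change of -1.10 in Ebf2-EGFP+ cells (SE 0.20, limma adjusted p = 0.000412) and of -1.16 in Ebf2-EGFP- cells (limma adjusted p = 0.000200), and in each population both E15.5 libraries were below both E11.5 libraries. The change of the population difference was 0.06 (limma adjusted p = 0.861), and its sign turned after scaling (-0.011), without replicate 1 of the E11.5 Ebf2-EGFP+ cells (-0.043), replicate 2 of the E11.5 Ebf2-EGFP- cells (-0.00030) or replicate 2 of the E15.5 Ebf2-EGFP+ cells (-0.036), and without replicate 1 of the E15.5 Ebf2-EGFP- cells (-0.10).

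*Kdm6b* removes the same mark and was the more abundant paralogue in every library. Ebf2-EGFP+ cells held 44.7 and 54.9 FPKM at E11.5, 28.5 and 31.7 at E13.5, then 41.7 and 26.1 by E15.5, and Ebf2-EGFP- cells 28.2 and 29.8 FPKM at E11.5, 22.9 and 30.2 at E13.5, then 47.5 and 35.8 by E15.5. The populations were apart at E11.5, where *Kdm6b* was called higher in Ebf2-EGFP+ cells (0.75, limma adjusted p = 0.00850), and overlapped at E13.5 and E15.5. *Kdm6b* was no longer called at E11.5 without replicate 2 of the E11.5 Ebf2-EGFP+ cells (0.61). The 6 lysine demethylases in the list were 3 higher and 0 lower at E11.5 (36.8 % and 44.9 % of all genes), then 0 higher and 2 lower at E13.5 (32.1 % and 43.5 %), a split that scaling turned to 2 higher and 0 lower. At E15.5 they were 0 higher and 2 lower (25.8 % and 31.6 %) with or without scaling. Over time 5 of the 6 fell in Ebf2-EGFP+ cells, beside 42.1 % of all genes (4 after scaling, beside 37.8 %). In Ebf2-EGFP- cells 3 fell and 1 rose (47.6 % and 37.7 % of all genes), and scaling turned this to 2 and 3 (42.7 % and 41.0 %). Among the rest of the family, *Kdm3a*, *Kdm4b*, *Kdm5b* and *Phf8*, levels in Ebf2-EGFP+ cells ranged from 5.15 and 5.48 FPKM for *Phf8* at E15.5 to 83.4 and 76.8 FPKM for *Kdm5b* at E11.5, values picked after they were seen.

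*Dnmt1* copies DNA methylation to new DNA strands after replication. It measured 47.1 and 51.1 FPKM at E11.5, 32.2 and 30.4 at E13.5, then 36.01 and 32.6 by E15.5 in Ebf2-EGFP+ cells and 114 and 99.7 FPKM at E11.5, 64.998 and 56.2 at E13.5, then 45.1 and 41.4 by E15.5 in Ebf2-EGFP- cells. The pairs did not overlap at any stage, and the gap narrowed with stage from -1.10 at E11.5 (SE 0.14, limma adjusted p = 2.09e-05) and -0.93 at E13.5, while no call was made at E15.5. The change of the difference was 0.78 (limma adjusted p = 0.00568). The de novo methyltransferase *Dnmt3a* stood at 18.9 and 17.9 FPKM at E11.5, 8.17 and 6.94 at E13.5, then 10.7 and 14.03 by E15.5 in Ebf2-EGFP+ cells and 27.5 and 25.2 FPKM at E11.5, 14.3 and 13.4 at E13.5, then 10.2 and 8.82 by E15.5 in Ebf2-EGFP- cells. The order at E15.5 was the reverse of that at E13.5, where *Dnmt3a* was called lower (-0.80), as it was at E11.5 (-0.50), and the difference moved by 0.84 from E11.5 to E15.5 (limma adjusted p = 0.00857). *Dnmt3a* was no longer called at E11.5 after median-of-ratios scaling (-0.24) or without replicate 2 of the E11.5 Ebf2-EGFP+ cells (-0.46) or replicate 1 of the E11.5 Ebf2-EGFP- cells (-0.44). Its relative *Dnmt3b* was scarce, with 1.49 and 1.55 FPKM at E11.5, 0.484 and 0.481 at E13.5, then 0.362 and 0.394 by E15.5 in Ebf2-EGFP+ cells and 4.14 and 3.18 FPKM at E11.5, 0.959 and 0.927 at E13.5, then 0.646 and 0.5399 by E15.5 in Ebf2-EGFP- cells. *Dnmt3b* was called lower at E11.5 (-0.88) and fell over time in each population, with log2 changes of -0.87 and -1.54.

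Tet enzymes oxidise 5-methylcytosine, the first step of its removal. *Tet3* was the more abundant of the 2 listed, at 37.2 and 36.8 FPKM at E11.5, 21.8 and 25.2 at E13.5, then 19.5 and 15.2 by E15.5 in Ebf2-EGFP+ cells and 25.8 and 23.2 FPKM at E11.5, 18.7 and 22.3 at E13.5, then 19.3 and 20.5 by E15.5 in Ebf2-EGFP- cells. Ebf2-EGFP+ cells were higher at E11.5 (0.58, limma adjusted p = 0.00505) and the populations overlapped afterwards, so that the difference moved by -0.78. *Tet2* was at 5.55 and 8.502 FPKM at E11.5, 5.55 and 5.38 at E13.5, then 1.68 and 2.005 by E15.5 in Ebf2-EGFP+ cells and 4.38 and 7.07 FPKM at E11.5, 5.51 and 6.67 at E13.5, then 3.44 and 4.47 by E15.5 in Ebf2-EGFP- cells. Replicates differed most at E11.5, and *Tet2* fell, with a log2 change of -1.48 in Ebf2-EGFP+ cells over these stages (limma adjusted p = 0.000142). *Tet2* was called lower in Ebf2-EGFP+ cells at E15.5 (-0.80). *Tet2* was no longer called at E15.5 without replicate 1 of the E15.5 Ebf2-EGFP+ cells (-0.71) or replicate 2 of the E15.5 Ebf2-EGFP- cells (-0.65).

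**Figure D3:**
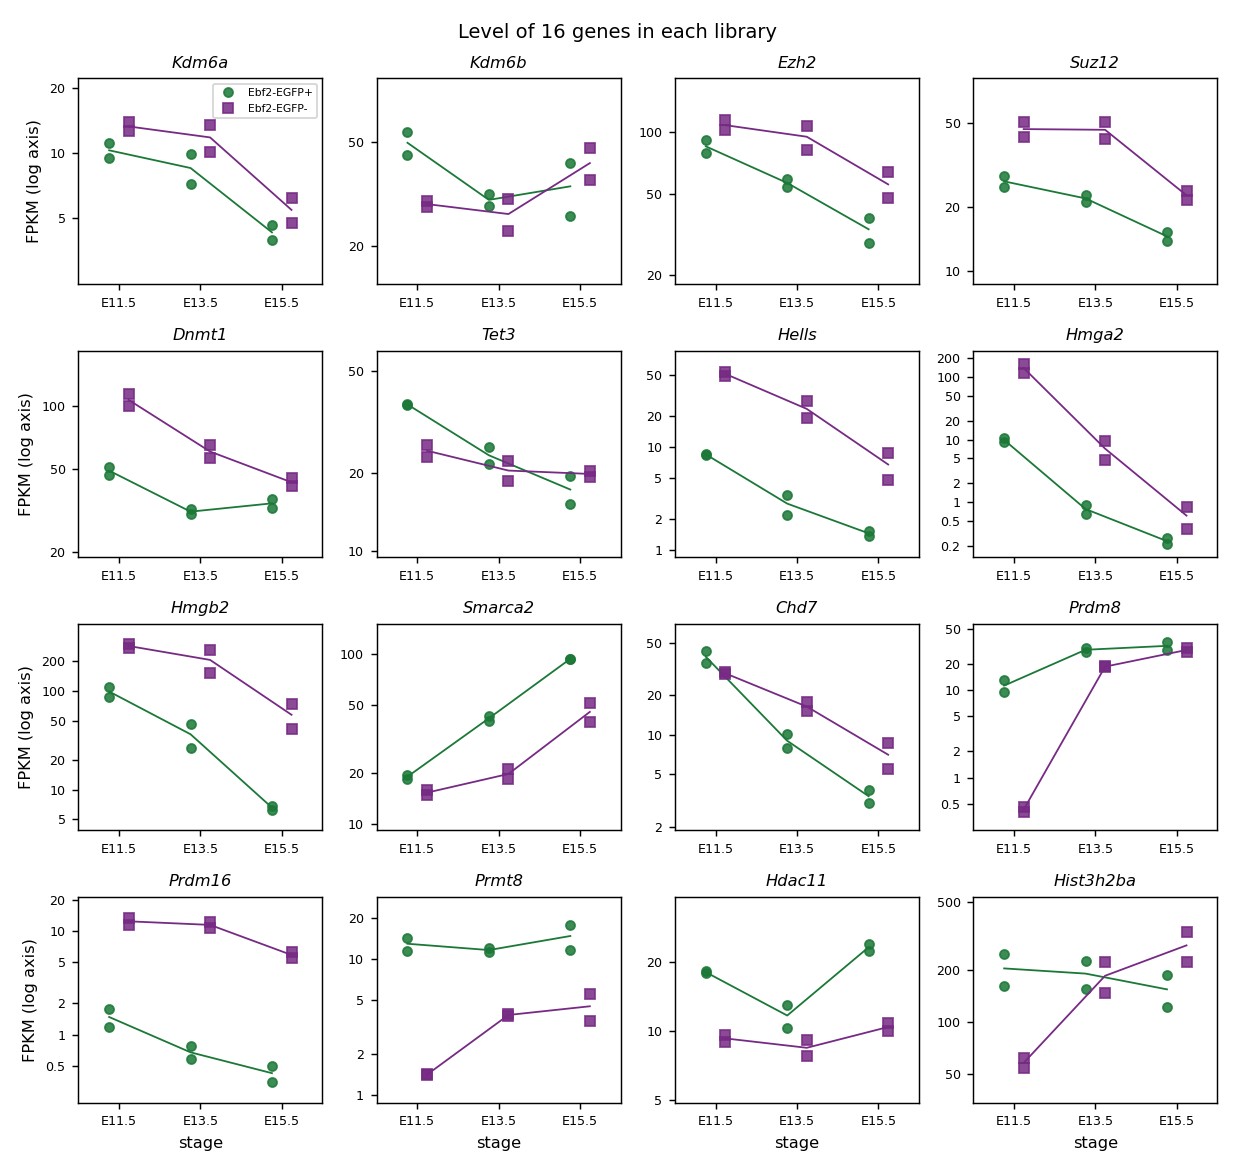
FPKM (log axis) in each of the 12 libraries for 16 chromatin genes, as circles for Ebf2-EGFP+ and squares for Ebf2-EGFP- cells, with lines joining group means. *Prdm16*, *Hells* and *Hmgb2* are lower in the Ebf2-EGFP+ libraries at each stage, *Prmt8* and *Hdac11* are higher, and *Kdm6a* falls with stage in each population.

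BAF complexes remodel nucleosomes around an ATPase, and 13 BAF or PBAF subunits were listed. At E11.5 6 were called higher and 1 lower in Ebf2-EGFP+ libraries. For E13.5 the numbers were 4 and 2, and for E15.5 4 and 5, beside 36.8 %, 32.1 % and 25.8 % of all genes higher and 44.9 %, 43.5 % and 31.6 % lower. After scaling the counts were 9 and 1, 7 and 2, and 4 and 4, so the excess of lower calls at E15.5 was lost. *Actl6b* is the actin-related subunit of neuronal BAF and takes the place that *Actl6a* holds in progenitors. It measured 50.6 and 49.5 FPKM at E11.5, 72.2 and 68.6 at E13.5, then 124 and 94.005 by E15.5 in Ebf2-EGFP+ cells. Among Ebf2-EGFP- cells it measured 6.72 and 7.91 FPKM at E11.5, 22.1 and 28.03 at E13.5, then 56.6 and 62.9 by E15.5. Ebf2-EGFP+ cells were higher in both libraries at every stage, by 2.62 at E11.5 (SE 0.17, limma adjusted p = 2.57e-07), 1.46 at E13.5, and 0.85 by E15.5. The narrowing of -1.78 (limma adjusted p = 0.000119) went with a rise of 2.87 in Ebf2-EGFP- cells. *Actl6a* stood at 42.9 and 37.6 FPKM at E11.5, 43.9 and 30.7 at E13.5, then 16.4 and 13.6 by E15.5 in Ebf2-EGFP+ cells and 73.1 and 65.9 FPKM at E11.5, 79.4 and 53.5 at E13.5, then 33.5 and 23.4 by E15.5 in Ebf2-EGFP- cells. *Actl6a* was the lower pair in Ebf2-EGFP+ cells at each stage and fell over time in Ebf2-EGFP+ (-1.37) and Ebf2-EGFP- cells (-1.28).

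Expressed as a share of the FPKM of both paralogues, *Actl6b* made up 54.1 and 56.8 % at E11.5, 62.2 and 69.1 % at E13.5, then 88.3 and 87.4 % by E15.5 in Ebf2-EGFP+ cells. Among Ebf2-EGFP- cells its share was 8.41 and 10.7 % at E11.5, 21.8 and 34.4 % at E13.5, then 62.8 and 72.9 % by E15.5. *Actl6b* was thus the larger share in every Ebf2-EGFP+ library, and in Ebf2-EGFP- libraries only at E15.5. The difference between populations in *Actl6a* itself was called at each stage but depended on single libraries. *Actl6a* was no longer called at E11.5 without replicate 2 of the E11.5 Ebf2-EGFP+ cells (-0.68) or replicate 1 of the E11.5 Ebf2-EGFP- cells (-0.70), at E13.5 without replicate 2 of the E13.5 Ebf2-EGFP+ cells (-0.56) or replicate 1 of the E13.5 Ebf2-EGFP- cells (-0.53) and at E15.5 without replicate 2 of the E15.5 Ebf2-EGFP+ cells (-0.74) or replicate 1 of the E15.5 Ebf2-EGFP- cells (-0.62). A share within a library does not depend on scaling between libraries.

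**Figure D4:**
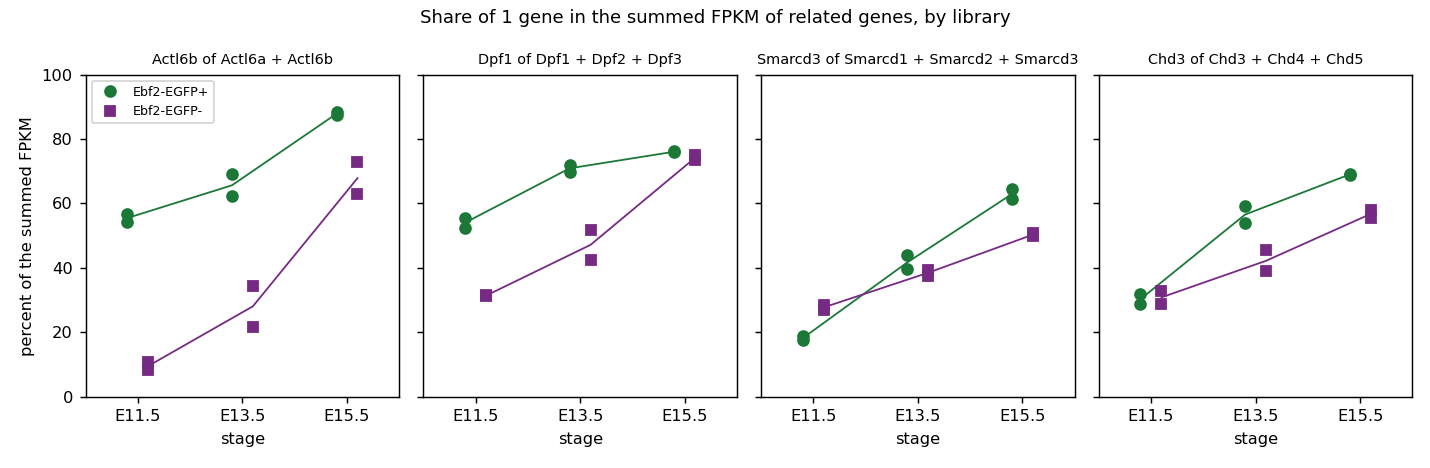
Share of *Actl6b*, *Dpf1*, *Smarcd3* and *Chd3* in the summed FPKM of their listed relatives (percent), with a point for each of the 12 libraries, by stage and population. *Actl6b* goes from 8.41 and 10.7 % at E11.5 to 62.8 and 72.9 % at E15.5 in the Ebf2-EGFP- population.

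The Dpf proteins are plant homeodomain finger subunits of BAF, of which *Dpf1* and *Dpf3* belong to the neuronal form and *Dpf2* is found in many tissues. *Dpf1* stood at 60.9 and 53.2 FPKM at E11.5, 79.95 and 70.995 at E13.5, then 101 and 80.4 by E15.5 in Ebf2-EGFP+ cells and 25.5 and 23.5 FPKM at E11.5, 33.4 and 42.2 at E13.5, then 89.8 and 72.7 by E15.5 in Ebf2-EGFP- cells. Ebf2-EGFP+ cells were higher at E11.5 (1.19, limma adjusted p = 6.35e-05) and E13.5 (0.99), and the populations overlapped at E15.5 after a rise of 1.68 in Ebf2-EGFP- cells. *Dpf3* was scarce, at 4.73 and 4.84 FPKM at E11.5, 6.43 and 9.24 at E13.5, then 15.9 and 9.51 by E15.5 in Ebf2-EGFP+ cells against 1.51 and 1.604 FPKM at E11.5, 1.66 and 2.24 at E13.5, then 2.72 and 1.92 by E15.5 in Ebf2-EGFP- cells. Its difference reached 1.18 at E11.5, 1.57 at E13.5, and 2.02 by E15.5 (SE 0.24, limma adjusted p = 4.45e-05), with no overlap at any stage. *Dpf2* measured 44.1 and 43.3 FPKM at E11.5, 24.8 and 21.4 at E13.5, then 16.3 and 15.55 by E15.5 in Ebf2-EGFP+ cells and 53.9 and 50.1 FPKM at E11.5, 43.5 and 37.01 at E13.5, then 27.3 and 24.3 by E15.5 in Ebf2-EGFP- cells. *Dpf2* was the lower pair in Ebf2-EGFP+ cells at each stage, called at E13.5 (-0.78) and E15.5 (-0.66), and it fell over time in each population. Among the Dpf genes the share of *Dpf2* went from 66.6 and 66.6 % at E11.5 to 22.8 and 24.6 % at E15.5 among Ebf2-EGFP- cells, and from 40.2 and 42.7 % to 12.2 and 14.7 % in Ebf2-EGFP+ cells.

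*Smarca2*, also known as Brm, is an ATPase of BAF that takes turns with Smarca4, which was not listed. It stood at 18.5 and 19.5 FPKM at E11.5, 40.5 and 43.4 at E13.5, then 93.9 and 94.2 by E15.5 in Ebf2-EGFP+ cells and 14.8 and 15.8 FPKM at E11.5, 18.4 and 21.02 at E13.5, then 40.1 and 51.4 by E15.5 in Ebf2-EGFP- cells. *Smarca2* rose with stage in each population, by 2.25 (SE 0.15, limma adjusted p = 2.03e-07) and 1.51, and Ebf2-EGFP+ cells were the higher pair at each stage, called at E13.5 (1.05) and E15.5 (1.03). Among the Smarcd subunits, *Smarcd3* measured 29.1 and 26.99 FPKM at E11.5, 60.7 and 67.4 at E13.5, then 127 and 93.2 by E15.5 in Ebf2-EGFP+ cells and 31.3 and 33.1 FPKM at E11.5, 51.1 and 49.96 at E13.5, then 84.8 and 70.05 by E15.5 in Ebf2-EGFP- cells. It rose with stage by 1.92 in Ebf2-EGFP+ cells (limma adjusted p = 1.39e-06) and 1.23 in Ebf2-EGFP- cells. *Smarcd1* stood at 115.4 and 112 FPKM at E11.5, 85.1 and 80.004 at E13.5, then 67.8 and 55.8 by E15.5 in Ebf2-EGFP+ cells and 79.7 and 77.7 FPKM at E11.5, 72.99 and 77.001 at E13.5, then 80.7 and 64.97 by E15.5 in Ebf2-EGFP- cells. Ebf2-EGFP+ cells were higher at E11.5 (0.53), and *Smarcd1* then fell, with a log2 change of -0.88 in that population. *Smarcd2* was the least abundant, at 10.6 and 14.2 FPKM at E11.5, 7.54 and 6.24 at E13.5, then 2.82 and 2.58 by E15.5 in Ebf2-EGFP+ cells and 4.89 and 5.71 FPKM at E11.5, 5.34 and 6.097 at E13.5, then 4.54 and 3.01 by E15.5 in Ebf2-EGFP- cells, and its difference of 1.08 at E11.5 moved by -1.43 to E15.5 (limma adjusted p = 0.00159). The share of *Smarcd3* among the 3 Smarcd genes was 18.8 and 17.6 % at E11.5, 39.6 and 43.9 % at E13.5, then 64.3 and 61.5 % by E15.5 in Ebf2-EGFP+ cells and 27.04 and 28.4 % at E11.5, 39.5 and 37.5 % at E13.5, then 49.9 and 50.8 % by E15.5 in Ebf2-EGFP- cells.

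*Arid1a*, a large DNA-binding subunit that defines canonical BAF, stood at 85.7 and 91.1 FPKM at E11.5, 51.1 and 56.5 at E13.5, then 44.6 and 34.4 by E15.5 in Ebf2-EGFP+ cells and 76.4 and 73.4 FPKM at E11.5, 51.2 and 53.8 at E13.5, then 45.2 and 46.5 by E15.5 in Ebf2-EGFP- cells, and it was called in no comparison of populations while it fell, with a log2 change of -1.15 and -0.70 over time. *Smarcc1*, a core scaffold subunit, measured 83.1 and 78.3 FPKM at E11.5, 53.9 and 55.2 at E13.5, then 40.96 and 36.4 by E15.5 in Ebf2-EGFP+ cells and 96.7 and 85.5 FPKM at E11.5, 66.2 and 69.1 at E13.5, then 60.4 and 51.98 by E15.5 in Ebf2-EGFP- cells, and fell, with a log2 change of -1.04 (limma adjusted p = 3.28e-05) and -0.69. *Smarce1*, which carries a high mobility group domain, measured 201 and 183 FPKM at E11.5, 134.6 and 111 at E13.5, then 75.1 and 73.1 by E15.5 in Ebf2-EGFP+ cells and 156 and 154.8 FPKM at E11.5, 162 and 134 at E13.5, then 119 and 119 by E15.5 in Ebf2-EGFP- cells. The Ebf2-EGFP+ pair of *Smarce1* went from the higher at E11.5 to the lower at E15.5, called at E15.5 (-0.68), with a moved difference of -0.98 (limma adjusted p = 0.00223). With stage it changed by -1.36 in Ebf2-EGFP+ cells and, among Ebf2-EGFP- cells, by -0.38. This last change was no longer called after scaling (-0.08) or without replicate 1 or replicate 2 of the Ebf2-EGFP- cells at E11.5 or replicate 1 or replicate 2 of those at E15.5 (-0.38 in each case). Of 10 symbols for further BAF partners, older and newer names included, 5 were listed. Of these 5, 4 were higher and 1 lower in Ebf2-EGFP+ libraries at E11.5 (36.8 % and 44.9 % of all genes). At E13.5 the numbers were 3 and 1 (32.1 % and 43.5 %), and by E15.5 2 and 0 (25.8 % and 31.6 %). *Ss18l1*, also called Crest, is the neuronal counterpart of *Ss18*. It stood at 31.4 and 28.9 FPKM at E11.5, 29.7 and 28.5 at E13.5, then 50.3 and 51.5 by E15.5 in Ebf2-EGFP+ cells and 7.26 and 8.44 FPKM at E11.5, 14.5 and 18.7 at E13.5, then 32.8 and 42.8 by E15.5 in Ebf2-EGFP- cells, with a difference of 1.82 at E11.5, while *Ss18* was lower (-0.59). The zinc finger proteins *Bcl11a* (1.44) and *Bcl11b* (1.39) and the subunit *Bcl7a* (0.66) were higher at E11.5.

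Other remodellers include the Chd helicases, *Smarca5* and *Hells*. Of these 9 genes, 2 were called higher and 3 lower at E11.5, beside 36.8 % and 44.9 % of all genes. Scaling turned these counts to 4 and 3. At E13.5 they were 2 higher and 6 lower, beside 32.1 % and 43.5 %, and at E15.5 0 and 6, beside 25.8 % and 31.6 %. *Hells* is a helicase that supports DNA methylation of repeats. In Ebf2-EGFP+ cells it stood at 8.51 and 8.38 FPKM at E11.5, 3.43 and 2.21 at E13.5, then 1.37 and 1.54 by E15.5, and in Ebf2-EGFP- cells at 52.5 and 48.9 FPKM at E11.5, 27.4 and 19.1 at E13.5, then 8.74 and 4.73 by E15.5. The populations were far apart at every stage, with differences of -2.45 at E11.5 (SE 0.25, limma adjusted p = 4.90e-06), -2.67 at E13.5, and -1.61 by E15.5. The fall from E11.5 to E15.5 was -1.95 in Ebf2-EGFP+ and -2.79 in Ebf2-EGFP- cells. *Chd7*, the gene mutated in CHARGE syndrome, measured 35.1 and 43.7 FPKM at E11.5, 10.1 and 7.95 at E13.5, then 3.803 and 3.03 by E15.5 in Ebf2-EGFP+ cells and 28.9 and 29.99 FPKM at E11.5, 17.7 and 15.2 at E13.5, then 8.66 and 5.48 by E15.5 in Ebf2-EGFP- cells. It fell, with a log2 change of -3.19 in Ebf2-EGFP+ cells (limma adjusted p = 2.03e-07) and -1.94 in Ebf2-EGFP- cells, and was lower in Ebf2-EGFP+ cells at E13.5 (-0.80).

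*Chd4* is the ATPase of the nucleosome remodelling and deacetylase complex NuRD. Its level was 220.1 and 217 FPKM at E11.5, 118 and 131 at E13.5, then 105 and 79.6 by E15.5 in Ebf2-EGFP+ cells and 175 and 146 FPKM at E11.5, 128 and 145 at E13.5, then 136 and 121 by E15.5 in Ebf2-EGFP- cells. The Ebf2-EGFP+ pair was the higher at E11.5 (0.45) and the lower at E15.5 (-0.48), and the populations overlapped at E13.5. *Chd4* was no longer called at E11.5 without replicate 1 of the E11.5 Ebf2-EGFP+ cells (0.44), replicate 2 of the E11.5 Ebf2-EGFP+ cells (0.46) or replicate 2 of the E11.5 Ebf2-EGFP- cells (0.32) and at E15.5 after median-of-ratios scaling (-0.27) or without replicate 2 of the E15.5 Ebf2-EGFP+ cells (-0.28) or replicate 1 of the E15.5 Ebf2-EGFP- cells (-0.40). The change of the difference was -0.93 (limma adjusted p = 0.00600). Within *Chd3*, *Chd4* and *Chd5*, which can each serve as the NuRD ATPase, the share of *Chd4* went from 69.1 and 65.6 % at E11.5 to 28.8 and 27.96 % at E15.5 among Ebf2-EGFP+ cells and from 70.8 and 66.5 % to 42.7 and 38.99 % in Ebf2-EGFP- cells. *Chd3* made up 69.1 and 68.9 % in Ebf2-EGFP+ and 55.5 and 57.997 % in Ebf2-EGFP- cells at E15.5.

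High mobility group proteins bind DNA or nucleosomes without being histones, and include the most abundant members of the list. Of 10 listed, none was called higher in Ebf2-EGFP+ cells at any stage, while 8 were lower at E11.5, 9 at E13.5, and 7 by E15.5, and 7, 6 and 6 after scaling. Of all genes, 36.8 %, 32.1 % and 25.8 % were higher at the successive stages. The shares of all genes that were lower were 44.9 %, 43.5 % and 31.6 %, and 40.8 %, 36.1 % and 27.2 % after scaling. Summed over the 10, Ebf2-EGFP+ cells held 1772 and 1541 FPKM at E11.5, 1359.5 and 1020.1 at E13.5, then 812 and 712 by E15.5 and Ebf2-EGFP- cells 3536 and 3190.4 FPKM at E11.5, 2705 and 1987 at E13.5, then 1726 and 1310.2 by E15.5. *Hmga2* is an AT-hook protein of early embryonic tissue. It measured 9.19 and 10.5 FPKM at E11.5, 0.909 and 0.6404 at E13.5, then 0.212 and 0.264 by E15.5 in Ebf2-EGFP+ cells and 161 and 117 FPKM at E11.5, 9.603 and 4.69 at E13.5, then 0.839 and 0.378 by E15.5 in Ebf2-EGFP- cells. Ebf2-EGFP+ cells were lower, with a difference of -3.67 at E11.5 (SE 0.27, limma adjusted p = 6.78e-07) and of -2.13 at E13.5. In Ebf2-EGFP- cells *Hmga2* fell, with a log2 change of -6.44 (limma adjusted p = 1.12e-08) to below 1 FPKM. Its population difference moved by 3.31.

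*Hmgb2*, a chromatin protein abundant in dividing cells, stood at 109.6 and 87.1 FPKM at E11.5, 46.2 and 26.4 at E13.5, then 6.88 and 6.25 by E15.5 in Ebf2-EGFP+ cells. Among Ebf2-EGFP- cells it stood at 296 and 273 FPKM at E11.5, 261 and 149.8 at E13.5, then 73.5 and 40.8 by E15.5. No Ebf2-EGFP+ library reached the Ebf2-EGFP- pair of its stage, and the differences were -1.53 at E11.5, -2.47 at E13.5, and -2.88 by E15.5 (SE 0.32, limma adjusted p = 2.78e-05). *Hmgb1*, its abundant relative, measured 493 and 439 FPKM at E11.5, 422 and 308 at E13.5, then 264 and 244 by E15.5 in Ebf2-EGFP+ cells and 826 and 772 FPKM at E11.5, 666 and 482 at E13.5, then 408 and 344 by E15.5 in Ebf2-EGFP- cells, and was lower at E11.5 (-0.78, limma adjusted p = 0.00456). *Hmgb3* stood at 310.4 and 288 FPKM at E11.5, 181 and 127 at E13.5, then 74.4 and 86.99 by E15.5 in Ebf2-EGFP+ cells and 366 and 381 FPKM at E11.5, 341 and 249 at E13.5, then 174 and 189 by E15.5 in Ebf2-EGFP- cells. Ebf2-EGFP+ cells were the lower pair, called at E13.5 (-0.94) and E15.5 (-1.17), and *Hmgb3* fell in both populations with stage.

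Hmgn proteins bind nucleosomes and loosen their packing. *Hmgn2* reached 430.3 and 357 FPKM at E11.5, 388 and 307 at E13.5, then 234 and 183 by E15.5 in Ebf2-EGFP+ cells and 1164 and 1020.0 FPKM at E11.5, 878 and 660.0 at E13.5, then 595 and 396 by E15.5 in Ebf2-EGFP- cells. *Hmgn2* was lower in Ebf2-EGFP+ cells at all 3 stages, with differences of -1.47 (limma adjusted p = 0.000147), -1.14 and -1.22. *Hmgn1* was at 331 and 277 FPKM at E11.5, 251 and 213 at E13.5, then 168 and 155.1 by E15.5 in Ebf2-EGFP+ cells and 471 and 408 FPKM at E11.5, 390.4 and 313 at E13.5, then 369 and 261 by E15.5 in Ebf2-EGFP- cells, and the pairs did not overlap. Its difference was -0.94 at E15.5, and it fell, with a log2 change of -0.90 in Ebf2-EGFP+ cells.

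Histones make up 23 of the members. Most replication-dependent histone RNAs end in a stem loop in place of a poly(A) tail, and oligo(dT) beads do not capture such ends, so the Hist1 levels below describe captured RNA only. Of the 23, 2 were called higher and 15 lower in Ebf2-EGFP+ libraries at E11.5. At E13.5 these were 0 and 18, against 0 and 8 at E15.5. Of all genes, 36.8 %, 32.1 % and 25.8 % were higher and 44.9 %, 43.5 % and 31.6 % lower at the successive stages. After scaling the histones were 2 higher and 14 lower at E11.5, 2 and 17 at E13.5, and 0 and 7 by E15.5. *H2afz*, a histone variant found at promoters, was the most abundant histone gene. It measured 303 and 209 FPKM at E11.5, 302 and 205 at E13.5, then 149.7 and 141 by E15.5 in Ebf2-EGFP+ cells. Among Ebf2-EGFP- cells it measured 822 and 619.6 FPKM at E11.5, 1004 and 623 at E13.5, then 417 and 312 by E15.5. The differences of -1.50 at E11.5 (SE 0.28, limma adjusted p = 0.000416), -1.66 and -1.30 at the later stages left no overlap, although the replicates within a group differed, most in Ebf2-EGFP- cells at E13.5. *H1f0*, a linker histone of cells that have stopped dividing, stood at 183 and 167 FPKM at E11.5, 165 and 122 at E13.5, then 80.1 and 54.7 by E15.5 in Ebf2-EGFP+ cells and 246 and 228 FPKM at E11.5, 402 and 280.2 at E13.5, then 244 and 183 by E15.5 in Ebf2-EGFP- cells. Ebf2-EGFP+ cells were the lower pair throughout, called at E13.5 (-1.24) and E15.5 (-1.66), and the difference moved by -1.23 (limma adjusted p = 0.00855).

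*Hist3h2a* and *Hist3h2ba*, both on chromosome 11, had the opposite sign to most histones at E11.5. *Hist3h2a*, a histone H2A gene, measured 43.2 and 32.6 FPKM at E11.5, 49.3 and 37.1 at E13.5, then 66.9 and 38.3 by E15.5 in Ebf2-EGFP+ cells and 8.95 and 9.35 FPKM at E11.5, 30.8 and 27.9 at E13.5, then 67.3 and 51.4 by E15.5 in Ebf2-EGFP- cells. *Hist3h2a* was higher in Ebf2-EGFP+ cells at E11.5 by 1.93 (SE 0.25, limma adjusted p = 2.36e-05) and overlapped at E15.5, after a rise of 2.56 in Ebf2-EGFP- cells. *Hist3h2ba*, a histone H2B gene, stood at 249 and 162 FPKM at E11.5, 227 and 157 at E13.5, then 189 and 122 by E15.5 in Ebf2-EGFP+ cells and 61.6 and 54.5 FPKM at E11.5, 224 and 149 at E13.5, then 334 and 225 by E15.5 in Ebf2-EGFP- cells. The Ebf2-EGFP+ pair was higher at E11.5 (1.77) and lower at E15.5 (-0.85), with a rise of 2.22 in Ebf2-EGFP- cells (limma adjusted p = 2.88e-05). *Hist3h2ba* was no longer called at E15.5 after median-of-ratios scaling (-0.64) or without replicate 2 of the E15.5 Ebf2-EGFP+ cells (-0.54) or replicate 1 of the E15.5 Ebf2-EGFP- cells (-0.57).

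Deacetylases remove acetyl groups from histones and other proteins, and 6 were listed. At E11.5 3 were called higher and 1 lower in Ebf2-EGFP+ cells (36.8 % and 44.9 % of all genes), and at E13.5 2 and 3 (32.1 % and 43.5 %), which scaling turned to 3 and 1. At E15.5 they were 1 and 3 (25.8 % and 31.6 %). *Hdac11*, the class IV deacetylase, was the one called higher at each stage. It stood at 17.8 and 18.3 FPKM at E11.5, 13.01 and 10.3 at E13.5, then 22.3 and 24.1 by E15.5 in Ebf2-EGFP+ cells and 8.89 and 9.63 FPKM at E11.5, 9.097 and 7.75 at E13.5, then 10.8 and 9.95 by E15.5 in Ebf2-EGFP- cells, with no overlap. The difference was 0.89 at E11.5 and 1.09 at E15.5 (SE 0.16, limma adjusted p = 0.000141), and 0.42 at E13.5. *Hdac11* was no longer called at E13.5 without replicate 1 of the E13.5 Ebf2-EGFP+ cells (0.27) or replicate 2 of the E13.5 Ebf2-EGFP- cells (0.32). The lysine methyltransferases *Suv39h1*, *Suv39h2* and *Suv420h2*, which mark silent heterochromatin, were 2 of 3 lower at E11.5, beside 44.9 % of all genes, and all 3 fell with stage in Ebf2-EGFP+ cells, beside 42.1 %, also after scaling (37.8 %).

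The arginine methyltransferase family had 2 listed genes, which were called higher in the Ebf2-EGFP+ population at each stage, with or without scaling. Of all genes, 36.8 %, 32.1 % and 25.8 % were higher at the successive stages. The share higher at all 3 stages was 14.6 % of all genes, and 20.5 % after scaling. *Prmt8*, a brain enzyme tethered to the plasma membrane, measured 14.3 and 11.495 FPKM at E11.5, 12.03 and 11.1 at E13.5, then 11.6 and 17.7 by E15.5 in Ebf2-EGFP+ cells and 1.42 and 1.43 FPKM at E11.5, 3.96 and 3.803 at E13.5, then 3.49 and 5.49 by E15.5 in Ebf2-EGFP- cells. The Ebf2-EGFP+ pair was well above at each stage, by 2.51 at E11.5 (SE 0.22, limma adjusted p = 1.95e-06), 1.36 at E13.5, and 1.51 by E15.5. *Prmt2*, the other gene of the family, was at 45.7 and 46.1 FPKM at E11.5, 47.1 and 40.95 at E13.5, then 84.7 and 80.03 by E15.5 in Ebf2-EGFP+ cells and 19.7 and 21.4 FPKM at E11.5, 26.2 and 26.1 at E13.5, then 49.3 and 59.1 by E15.5 in Ebf2-EGFP- cells.

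The 4 PRDM genes encode zinc finger proteins with a domain related to histone methyltransferases, and 1 was called higher and 3 lower in Ebf2-EGFP+ libraries at E11.5, beside 36.8 % and 44.9 % of all genes. By E15.5 0 were higher and 2 lower, beside 25.8 % and 31.6 % (0 and 1 after scaling). *Prdm16*, a regulator of radial glia, stood at 1.18 and 1.78 FPKM at E11.5, 0.767 and 0.577 at E13.5, then 0.495 and 0.349 by E15.5 in Ebf2-EGFP+ cells. Among Ebf2-EGFP- cells it stood at 13.49 and 11.54 FPKM at E11.5, 12.4 and 10.7 at E13.5, then 6.33 and 5.49 by E15.5. Every Ebf2-EGFP+ library was low and every Ebf2-EGFP- library several fold higher, and the difference was -2.45 at E11.5, -2.91 at E13.5 (SE 0.18, limma adjusted p = 1.42e-06) and -2.28 at E15.5. *Prdm8*, which acts in the wiring of cortical neurons, measured 9.45 and 13.05 FPKM at E11.5, 30.3 and 27.3 at E13.5, then 35.4 and 28.5 by E15.5 in Ebf2-EGFP+ cells and 0.461 and 0.408 FPKM at E11.5, 18.4 and 18.6 at E13.5, then 30.2 and 27.2 by E15.5 in Ebf2-EGFP- cells. At E11.5 *Prdm8* was high in Ebf2-EGFP+ libraries and near 0 in Ebf2-EGFP- libraries, with a difference of 3.08 (limma adjusted p = 9.32e-08). By E15.5 the populations overlapped, *Prdm8* having risen by 4.37 in Ebf2-EGFP- and 1.44 in Ebf2-EGFP+ cells, and the difference moved by -2.93 (limma adjusted p = 6.49e-06).

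Other readers, with bromodomains, plant homeodomain fingers or ARID domains, number 7 in the list. They were 2 higher and 2 lower at E11.5 (4 and 1 after scaling), beside 36.8 % and 44.9 % of all genes, and 0 higher and 6 lower at E15.5 (0 and 2 after scaling), beside 25.8 % and 31.6 %. All 7 fell with stage in Ebf2-EGFP+ cells, also after scaling, beside 42.1 % and 37.8 % of all genes.

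A set of 4 members was called higher in Ebf2-EGFP+ libraries at E11.5 and lower at E15.5, beside 3.68 % of all genes: *Hist3h2ba* and *Chd4*, described above, *Phf21b* and *Arid2*. *Phf21b*, a plant homeodomain finger protein, stood at 75.6 and 78.3 FPKM at E11.5, 45.1 and 42.5 at E13.5, then 29.8 and 18.6 by E15.5 in Ebf2-EGFP+ cells and 35.4 and 45.8 FPKM at E11.5, 38.7 and 45.5 at E13.5, then 46.6 and 36.4 by E15.5 in Ebf2-EGFP- cells. Ebf2-EGFP+ cells fell with stage (-1.67) while Ebf2-EGFP- cells overlapped between the stages, and the difference of 0.92 at E11.5 became -0.78 at E15.5, a move of -1.70 (limma adjusted p = 0.000656). *Arid2*, the DNA-binding subunit of PBAF, stood at 31.2 and 32.2 FPKM at E11.5, 16.7 and 17.4 at E13.5, then 10.9 and 10.1 by E15.5 in Ebf2-EGFP+ cells and 26.3 and 23.4 FPKM at E11.5, 19.7 and 20.5 at E13.5, then 15.96 and 15.96 by E15.5 in Ebf2-EGFP- cells. Its difference of 0.34 at E11.5 became -0.56 at E15.5, a move of -0.91 (limma adjusted p = 0.00153). *Phf21b* was no longer called at E15.5 without replicate 2 of the E15.5 Ebf2-EGFP+ cells (-0.46) or replicate 1 of the E15.5 Ebf2-EGFP- cells (-0.61). *Arid2* was no longer called at E11.5 without replicate 1 of the E11.5 Ebf2-EGFP+ cells (0.37), replicate 2 of the E11.5 Ebf2-EGFP+ cells (0.32) or replicate 2 of the E11.5 Ebf2-EGFP- cells (0.26). The calls for *Chd4* and *Hist3h2ba* were lost under the settings given with their levels.

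**Figure D5:**
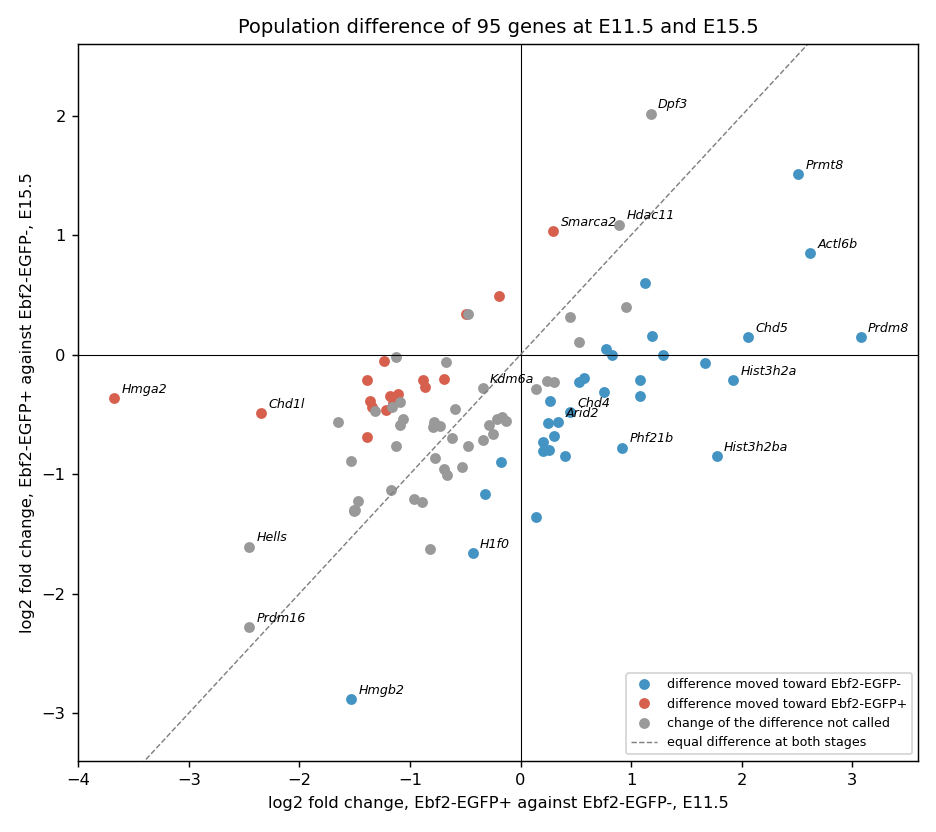
Population difference (log2 of FPKM + 1, Ebf2-EGFP+ against Ebf2-EGFP-) of each of the 95 genes, at E11.5 on the horizontal and at E15.5 on the vertical axis, with the change between them called downward in blue, upward in red and not called in grey, and a dashed line for equal differences. *Hist3h2ba* lies at 1.77 and -0.85 among the 4 genes with opposite calls, and *Prdm16* lies at -2.45 and -2.28.

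Beyond the families of the symbol rule, other chromatin genes were looked up under 168 symbols, older and newer names of some genes among them. Of these symbols, 62 were listed. They were 16 higher and 37 lower in Ebf2-EGFP+ libraries at E11.5, beside 36.8 % and 44.9 % of all genes. At E13.5 they split into 13 and 42, beside 32.1 % and 43.5 % of all genes, and at E15.5 into 9 and 36, beside 25.8 % and 31.6 %. With stage, 42 fell and 12 rose in Ebf2-EGFP+ cells (42.1 % and 33.3 % of all genes), and 40 fell and 13 rose in Ebf2-EGFP- cells (47.6 % and 37.7 % of all genes). *Uhrf1*, the partner that leads *Dnmt1* to replicated DNA, stood at 18.7 and 19.4 FPKM at E11.5, 6.63 and 4.4003 at E13.5, then 3.48 and 2.57 by E15.5 in Ebf2-EGFP+ cells and 131 and 113 FPKM at E11.5, 59.1 and 41.97 at E13.5, then 20.5 and 10.8 by E15.5 in Ebf2-EGFP- cells. *Uhrf1* was lower in Ebf2-EGFP+ cells at E11.5 (-2.61, limma adjusted p = 5.37e-06). *Hat1*, an acetyltransferase for new histones, was lower (-2.43), as was *Chaf1b*, of a chaperone that loads histones behind the replication fork (-2.19). The histone chaperone *Nap1l2*, found in neurons, was higher by 1.62. Of 22 histone chaperones, 13 were listed, 10 of them lower and 3 higher at E11.5, beside the same 44.9 % and 36.8 % of all genes. Of 18 genes of chromosome structure, such as cohesin and condensin subunits, 12 were listed and 11 were lower at E11.5, beside 44.9 % of all genes.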

How the data were processed

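The members, roles and gene lists were chosen with earlier results of these data known. Per the labels and methods, the authors aligned reads to mm10 with TopHat2 2.0.8b and computed gene levels with Cufflinks 2.2.0. The deposited coding table gives them as FPKM for 4859 genes in 12 libraries. Its columns of group means, fold changes, p and q values were not used, nor was the lncRNA table. The methods state an average read depth, and depths of single libraries were not used here. Members were found by the start of their symbol, so genes under other symbols are missing. Log2 of FPKM plus a pseudocount of 1 was fitted with limma 3.58.1 (R 4.3.3, variance trend) as 6 groups, with 2-sided tests, Benjamini-Hochberg adjustment over 4859 genes and calls under 0.05. The code was tested on simulated data. Named genes are all listed subunits of BAF, Polycomb repressive complex 2 and DNA methylation, *Kdm6a* and *Kdm6b*, the 3 largest called changes in each direction of each population or stage comparison with no overlap between groups, genes with opposite calls, and the 5 most abundant. Replicate numbers served as a pairing check: deviations of both populations from their group means had across-gene correlations of 0.431, 0.534 and 0.431 at the successive stages, genes not being independent replicates. Alternatives were a pseudocount of 0.1, median-of-ratios scaling, a mean of at least 1 FPKM, no trend, a replicate block, an added 2-fold threshold and leaving out each library. Cell type lists covered proliferation, radial glia, intermediate progenitors, neurons, Cajal-Retzius cells, cortical plate, interneurons, endothelium, microglia, erythroid cells and meninges. Near-identical histone copies may share reads. A gene that met the naming rule is not reported here.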

Additional observations from a re-analysis of the deposited data

Results flagged for a closer look

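For 26 of the 43 named genes, the difference between Ebf2-EGFP+ and Ebf2-EGFP- cells at E15.5 departed from that at E11.5 by a limma test of the change itself. This share is close to that of all genes, of which 27.7 % moved downward and 32.0 % upward, and many of the genes were named for large or opposite changes in the same comparisons. The change, as log2 of FPKM + 1, was downward for 19 genes. It was -2.93 for *Prdm8*, -2.63 for *Hist3h2ba*, -2.14 for *Hist3h2a*, -1.78 for *Actl6b*, -1.70 for *Phf21b*, -1.43 for *Smarcd2* and -1.35 for *Hmgb2*. *Chd7* gave -1.25, *H1f0* -1.23, *Kdm6b* -1.06, *Tet2* -1.06, *Dpf1* -1.03 and *Prmt8* -1.003. Smaller downward changes were those of *Smarce1* (-0.98), *Chd4* (-0.93), *Arid2* (-0.91), *Hmgb3* (-0.85), *Tet3* (-0.78) and *Smarcd1* (-0.76). The change was upward for 7 genes, with 0.67 for *Dnmt3b*, 0.69 for *Smarcd3*, 0.70 for *Phf19*, 0.74 for *Smarca2*, 0.78 for *Dnmt1*, 0.84 for *Dnmt3a* and 3.31 for *Hmga2*.

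Some of these calls were lost under other settings. *Dnmt3b* was no longer called for the change of the difference with a pseudocount of 0.1 (0.67). *Phf19* was no longer called for the change of the difference with a pseudocount of 0.1 (0.93) or without replicate 2 of the E15.5 Ebf2-EGFP- cells (0.52). *Hmgb2* was no longer called for the change of the difference without replicate 1 of the E11.5 Ebf2-EGFP+ cells (-1.19), replicate 2 of the E11.5 Ebf2-EGFP- cells (-1.29), replicate 2 of the E15.5 Ebf2-EGFP+ cells (-1.29) or replicate 1 of the E15.5 Ebf2-EGFP- cells (-0.94). *Hmgb3* was no longer called for the change of the difference without replicate 1 of the E11.5 Ebf2-EGFP+ cells (-0.79), replicate 1 of the E11.5 Ebf2-EGFP- cells (-0.82), replicate 1 of the E15.5 Ebf2-EGFP+ cells (-0.73) or replicate 2 of the E15.5 Ebf2-EGFP- cells (-0.78). *Kdm6b* was no longer called for the change of the difference without replicate 2 of the E11.5 Ebf2-EGFP+ cells (-0.92) or replicate 2 of the E15.5 Ebf2-EGFP+ cells (-0.73). *Prmt8* was no longer called for the change of the difference without replicate 1 of the E11.5 Ebf2-EGFP+ cells (-0.86), replicate 1 of the E15.5 Ebf2-EGFP+ cells (-0.72) or replicate 2 of the E15.5 Ebf2-EGFP- cells (-0.74). *Smarcd3* was no longer called for the change of the difference without replicate 2 of the E11.5 Ebf2-EGFP+ cells (0.64), replicate 2 of the E11.5 Ebf2-EGFP- cells (0.65), replicate 1 of the E15.5 Ebf2-EGFP+ cells (0.46) or replicate 2 of the E15.5 Ebf2-EGFP- cells (0.55). *Tet2* was no longer called for the change of the difference without replicate 2 of the E11.5 Ebf2-EGFP+ cells (-0.79), replicate 1 of the E11.5 Ebf2-EGFP- cells (-0.77), replicate 1 of the E15.5 Ebf2-EGFP+ cells (-0.97) or replicate 2 of the E15.5 Ebf2-EGFP- cells (-0.91).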

How the results depend on the processing

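With a 2-fold change also needed, members called in Ebf2-EGFP+ cells were 13 higher and 25 lower at E11.5 (all genes 21.4 % and 30.8 %), 4 and 31 for E13.5 (13.4 % and 23.98 %), 4 and 14 for E15.5 (11.1 % and 13.4 %), 2 higher and 7 lower at all 3 stages (3.42 % and 8.34 %), 7 risen and 32 fallen over time in Ebf2-EGFP+ cells (20.6 % and 23.5 %), 34 fallen in Ebf2-EGFP- cells (34.1 %), and 4 up and 19 down for the change of the difference (19.8 % and 18.0 %), since this setting can only remove calls. Scaling gave 22 higher at E13.5, a pseudocount of 0.1 gave 8 members with an upward change of the difference, and the replicate block, planned beforehand, gave 38 lower at all 3 stages. With the block, members were 30 higher and 51 lower at E11.5 (all genes 39.5 % and 47.3 %). At E13.5 they were 16 and 60 (36.3 % and 46.5 %), and at E15.5 9 and 57 (31.4 % and 38.9 %). The difference then moved up for 25 members and down for 41 (39.7 % and 33.5 %). The block also brought the limma adjusted p of *Kdm6a* to 0.0236 at E11.5 and 0.00789 at E13.5. It changed no other of the 188 results on named genes. Those results are the calls of the main fit, with none of the alternatives, and the comparisons of *Kdm6a*. A call that the block gained for another named gene could therefore not appear among them. The cause was not tested. Leaving out single libraries gave 8 to 15 higher at E13.5, 28 to 47 lower at E15.5, 9 to 21 upward changes of the difference and 14 to 28 lower at all 3 stages. The change of the difference of *Kdm6a* turned from 0.06 to -0.011 after scaling and ran from -0.10 to 0.22 with single libraries left out.

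Among 188 results on 43 named genes, scaling ended 17 calls, a pseudocount of 0.1 ended 2 and limma without trend ended 0. Calls that these settings may have gained in other comparisons of those genes were not counted. Each group held 2 libraries, and where 1 was left out the lone library was assumed to vary like the others. The table holds only genes reported to differ between populations, so neither shares nor medians describe all chromatin genes. FPKM carry no counts, so the reads behind a value are unknown, and differences among the Hist1 genes near 0 FPKM may not be detectable at this depth. Sorting, stage and cell composition were not separated, and protein was not measured.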

Other observations

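Several histone genes differed widely between replicates, and were chosen after their values were seen. *Hist1h4i* stood at 7.06 and 2.93 FPKM at E11.5, 10.7 and 2.96 at E13.5, then 3.57 and 0.782 by E15.5 in Ebf2-EGFP+ cells and 22.1 and 10.1 FPKM at E11.5, 22.7 and 12.3 at E13.5, then 12.1 and 2.83 by E15.5 in Ebf2-EGFP- cells, without a call in any of the 6 comparisons. *Hist1h2bc*, the most abundant of the Hist1 genes in the highest library, measured 6.04 and 4.503 FPKM at E11.5, 32.3 and 16.3 at E13.5, then 11.1 and 14.1 by E15.5 in Ebf2-EGFP+ cells and 4.398 and 4.92 FPKM at E11.5, 20.9 and 11.8 at E13.5, then 15.6 and 15.4 by E15.5 in Ebf2-EGFP- cells. *Hist1h4h* measured 0.395 and 0.7301 FPKM at E11.5, 4.297 and 0.369 at E13.5, then 2.18 and 0.471 by E15.5 in Ebf2-EGFP+ cells and 1.69 and 3.26 FPKM at E11.5, 3.28 and 3.58 at E13.5, then 2.1000 and 0.552 by E15.5 in Ebf2-EGFP- cells.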
